A study of Homo sapiens with 15 samples.

Results

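KO1 and KO2 are a pair of SETD2 knockout lines that grew from single cells after the same guide RNA was used, and their open chromatin was compared clone against clone. Peaks of the 3 KO1 and 3 KO2 ATAC-seq libraries on chromosomes 1 to 22, X and Y were merged where they shared at least 1 bp, which gave 299577 regions. A region was called KO1-only if all 3 KO1 libraries and no KO2 library held a peak, and KO2-only in the reverse case. The rule selected 3231 KO1-only regions (1.08% of merged regions) and 7794 KO2-only regions (2.60%), 11025 of 299577 in all, while 142315 regions (47.5%) held a peak in all 6 libraries.

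The cells are RPTEC, a human renal proximal tubule epithelial line immortalized with hTERT and kept in G418. The series has 15 ATAC-seq libraries in 5 groups of 3: wild-type cells (WT, SETD2 intact), KO1 and KO2 (SETD2 cut by CRISPR/Cas9), and Rescue1 and Rescue2, which carry a lentiviral FLAG-tagged SETD2 in the KO2 background. KO1 is clone E1, KO2 is clone G5, and each is 1 clone. The 3 libraries of a clone therefore describe that clone, and what the edit did in each clone and what already differed between the 2 founder cells cannot be told apart in any comparison of KO1 with KO2. Nothing in the labels says that the libraries came from separate cultures, so p-values measure the spread between these libraries.

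SETD2 places trimethylation on H3K36 (lysine 36 of histone H3) along transcribed gene bodies, and it is often mutated in clear cell renal carcinoma. ATAC-seq marks accessible DNA because the Tn5 transposase inserts adapters where nucleosomes do not block it. Most accessible sites that differ between related cells are distal enhancers, bound by factors such as AP-1 (the FOS and JUN family), TEAD or C/EBP proteins. A called peak is a stretch where reads exceeded the background of that library, so a region without a peak lay below the calling threshold. A peak list does not show whether the DNA itself is present, so closed DNA and absent DNA cannot be told apart from these files.

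The guide and its site are shown first because both clones share it. The designed guide has 1 exact match next to an NGG motif in the hg38 sequence of these chromosomes, at chr3:47122997-47123016 on the plus strand, in exon 3 of SETD2, a gene on the minus strand. Capitals mark the guide within its 100-base site.
SETD2 guide site: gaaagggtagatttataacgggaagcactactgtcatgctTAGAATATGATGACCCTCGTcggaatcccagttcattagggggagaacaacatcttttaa
With up to 3 mismatches only 1 further site was found, at chr3:135517692-135517711, an intergenic position with 3 mismatches. No merged region covered either site. The nearest KO1-only region lay 42 kb from the SETD2 site and 1256 kb from the second one, and the nearest KO2-only region lay 96 kb and 170 kb away.

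The sequences of the highest-ranked clone-only regions are printed as examples of the highest peaks, and do not stand for all clone-only regions. Regions were ranked by the lowest of the 3 percentiles that their fold enrichment took within the lists of their own clone, and 150 bases around the highest summit are printed from hg38, plus strand. Regions in untranslated exons or on chromosomes 8 and Y are left out of the printed set. Capitals mark every match to the 20 consensus sequences described further down.
KO1-only 1 at chr12:61220455-61220604, intergenic: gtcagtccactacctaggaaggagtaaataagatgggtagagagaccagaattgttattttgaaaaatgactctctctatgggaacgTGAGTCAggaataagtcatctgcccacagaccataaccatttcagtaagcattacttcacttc
KO1-only 2 at chr3:76470410-76470559, intron of ROBO2: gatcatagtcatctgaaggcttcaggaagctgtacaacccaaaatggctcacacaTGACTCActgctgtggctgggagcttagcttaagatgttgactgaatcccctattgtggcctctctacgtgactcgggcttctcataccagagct
KO1-only 3 at chr17:2982977-2983126, intron of RAP1GAP2: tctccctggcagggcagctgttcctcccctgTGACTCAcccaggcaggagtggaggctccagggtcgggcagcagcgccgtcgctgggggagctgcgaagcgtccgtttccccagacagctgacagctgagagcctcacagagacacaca
KO2-only 1 at chr9:21591738-21591887, intergenic, 109 kb from the start of IFNE: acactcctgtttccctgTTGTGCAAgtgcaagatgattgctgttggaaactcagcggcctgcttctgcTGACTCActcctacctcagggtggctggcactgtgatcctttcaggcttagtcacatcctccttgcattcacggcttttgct
KO2-only 2 at chrX:100091053-100091202, intergenic, 319 kb from the start of PCDH19: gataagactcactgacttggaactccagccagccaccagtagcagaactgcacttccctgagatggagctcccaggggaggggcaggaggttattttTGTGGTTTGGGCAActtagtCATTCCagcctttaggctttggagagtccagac
KO2-only 3 at chr10:9957469-9957618, intergenic: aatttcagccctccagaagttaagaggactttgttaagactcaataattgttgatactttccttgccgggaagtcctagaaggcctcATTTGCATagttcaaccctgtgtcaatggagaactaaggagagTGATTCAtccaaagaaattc
The AP-1 consensus TGANTCA stood within this window in each of the KO1-only sequences and in KO2-only 1 and KO2-only 3. The second KO2-only sequence held matches to RUNX, C/EBP and TEAD instead. KO2-only 1 also held a C/EBP match and KO2-only 3 a POU octamer match.

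At the first KO1-only region (chr12:61220222-61220808) fold enrichment over the background of the same library was 16.1, 14.4 and 16.8 in KO1, and no WT, KO2 or rescue library had a peak. At the ROBO2 intron (chr3:76470215-76470606) it was 15.6, 14.3 and 19.1 in KO1 and 12.9, 11.1 and 11.5 in WT, with no peak in KO2 or rescue libraries. The first of these sites was thus seen in KO1 alone, and the second was present in WT and missing from KO2 and its 2 descendants. At the RAP1GAP2 intron (chr17:2982823-2983191) KO1 had 20.2, 14.3 and 17.7, WT and Rescue1 had no peak, and Rescue2 had 5.25, 5.74 and 4.17.

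At the first KO2-only region (chr9:21591546-21591980) fold enrichment was 20.5, 21.2 and 20.6 in KO2 and 18.9 to 20.1 in WT, and the 6 rescue libraries had 19.3 to 22.3. This site was called at a similar height in every library outside KO1. At the region near PCDH19 (chrX:100090994-100091379) KO2 had 20.2, 19.1 and 18.1, no WT library had a peak, 1 Rescue1 library had 3.69, and Rescue2 had 13.5, 16.3 and 15.1. At the chromosome 10 region (chr10:9957448-9957654) KO2 had 18.6, 17.2 and 18.8, Rescue2 had 7.16, 5.74 and 5.73, and WT and Rescue1 had no peak. The other KO2-only regions in the top 5 were the promoter of BEX5, with 21.2, 20.1 and 18.0 in KO2 and 12.8 to 16.2 in WT, and a site in an intron of a gene that is not protein-coding on chromosome 4 (chr4:16270106-16270888), with 18.0, 17.3 and 16.5 in KO2 and 3.84 to 5.24 in WT. All of the top 5 KO1-only regions, of which not all are described here, and all of the top 5 KO2-only regions were also clone-only with lists of 150000 peaks per library.

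Such high peaks were rare among clone-only regions. The median of the lowest percentile was 19.8 for KO1-only and 17.9 for KO2-only regions, against 53.2 for regions with a peak in all 6 libraries. A lowest percentile of at least 50 was reached by 414 KO1-only regions (12.8%) and 750 KO2-only regions (9.62%), against 53.2% of the regions shared by all 6. Median widths were 193 bp for KO1-only and 175 bp for KO2-only regions, close to the 198 bp of all merged regions, and 353 bp for regions shared by all 6. Clone-only regions were mostly low peaks, and their number changed with the length of the lists.

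The lists held 204028, 214783 and 216023 peaks in KO1 and 220315, 220784 and 254650 in KO2 on the chromosomes used. KO1 thus had 211611 ± 6597 peaks (SD, n = 3) and KO2 231916 ± 19689, and the values did not overlap (difference -20305, exact permutation p = 0.1, two-sided, the smallest 3 against 3 libraries allow). KO2 replicate 3 stood apart with the longest list of the 6. Bases under peaks were 55.1 ± 1.35 Mb in KO1 and 56.7 ± 4.56 Mb in KO2 (exact permutation p = 0.8), and without KO2 replicate 3 the sign of that difference turned, to 0.802 Mb. Since the files hold no read counts, depth is unknown, and a background rate derived from the peak values is given in its place. This rate was 0.796 to 0.954 reads per base in KO1 and 0.748 to 0.967 in KO2. It is the most frequent value among peaks, reached by 28.7 to 34.7% of them in the KO libraries, and did not scale the comparisons.

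Around the rule, 5837 regions held a peak in 2 of 3 KO1 libraries and no KO2 library, and 3780 in 3 of 3 KO1 and 1 of 3 KO2 libraries. The reverse counts were 11663 and 8223. With 150000 peaks per library, chosen by the −log10 q, 3468 regions were KO1-only and 4279 KO2-only, so KO2-only regions outnumbered KO1-only regions 1.23-fold and not 2.41-fold as with the full lists. Only 860 regions of the full KO1-only list (26.6%) were also KO1-only with equal lists, which is 24.8% of the equal-list set, and 1417 KO2-only regions (18.2% of the full and 33.1% of the equal-list set). Without KO2 replicate 3 the counts were 5563 and 9439.

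Whether a clone-only region was open in the parental line was asked in the WT libraries, which the rule did not use. Of the KO1-only regions, 20.5 to 24.6% held a peak in the 3 WT libraries. Of the KO2-only regions, 37.8 to 42.1% did. KO2-only regions were the more often open in each WT library, by a mean of 17.3 percentage points (KO1-only minus KO2-only, -17.3 ± 0.155, SD, n = 3, exact sign-flip permutation p = 0.25, the smallest 3 libraries allow). It was smaller with a KO2 library left out, -10.8, -9.72 and -8.56 without KO2 replicate 1, 2 and 3. Among all merged regions 55.5 to 59.6% held a WT peak, so both sets lay below the whole. The whole includes the regions shared by all 6 KO libraries, of which 85.0 to 87.2% held a WT peak. The rule keeps those out of both sets, so a lower share than the whole follows in part from the rule. In all, 2274 KO1-only regions (70.4%) had no peak in any WT library and 470 (14.5%) had one in all 3, whereas for KO2-only regions 3859 (49.5%) had none and 2252 (28.9%) had 3. For all merged regions these shares were 34.6 and 48.9%.

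The same question was asked of the rescue lines, which descend from KO2. Rescue1 libraries held a peak in 16.9 to 18.5% of KO1-only and 55.4 to 59.6% of KO2-only regions, and Rescue2 libraries in 13.9 to 25.2% and 61.3 to 76.9%. The difference was -44.8 ± 5.39 percentage points (SD, n = 6, exact sign-flip permutation p = 0.0312, the smallest 6 libraries allow), with KO2-only regions higher in 6 of 6 libraries. The 6 libraries come from 2 clones with 1 parent and are not independent. That parent is KO2, whose peaks entered the rule for both sets, so this p-value is no independent support for the difference. All 6 rescue libraries held a peak in 171 KO1-only regions (5.29%) and 2963 KO2-only regions (38.0%), and none did in 2026 (62.7%) and 1126 (14.4%). KO1-only regions were thus mostly without a peak in the rescue lines, and KO2-only regions mostly had one in at least 1 library. Of all merged regions, 60.6 to 63.2% held a peak in Rescue1 libraries and 60.5 to 71.4% in Rescue2 libraries. In all 6 rescue libraries 49.1% of them did, above the 38.0% of KO2-only regions. KO2-only regions thus lay below the whole in each Rescue1 library and above it in each Rescue2 library. KO1-only regions lay below it in every rescue library. Here too the whole includes the regions shared by all 6 KO libraries.

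**Figure D1:**
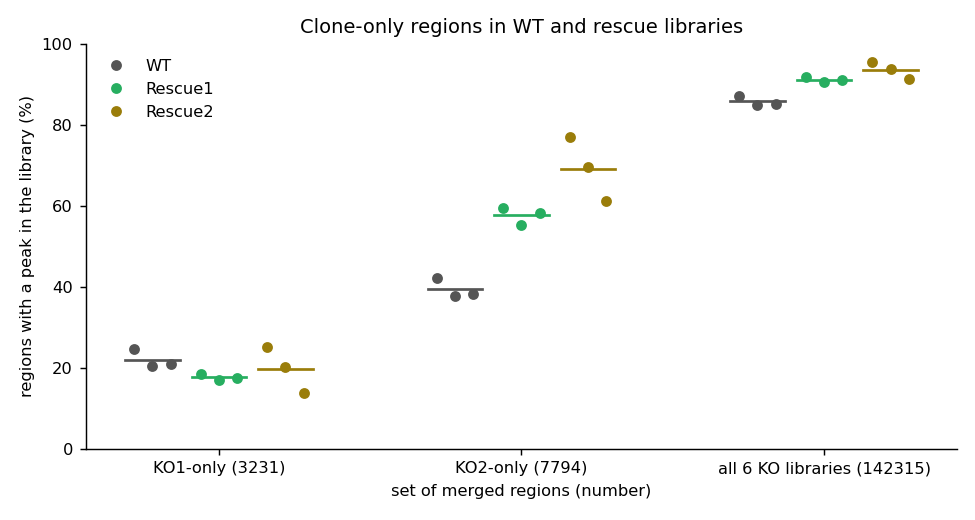
Percentage of KO1-only regions, KO2-only regions and regions shared by all 6 KO libraries that held a peak in each WT, Rescue1 and Rescue2 library (points, n = 3 per group; lines, group means). KO1-only regions sat between 13.9 and 25.2% in every library, and KO2-only regions between 37.8 and 42.1% in WT and between 55.4 and 76.9% in rescue libraries.

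Clone-only regions were not spread evenly over the chromosomes. KO1-only regions made up 1.75% of the merged regions of chromosome 3 and 1.65% of chromosome X, against a median of 1.02% over the 24 chromosomes, and only 0.409% of chromosome 22. KO2-only regions made up 4.0% of chromosome 19, 3.89% of chromosome 9 and 3.62% of chromosome 22, against a median of 2.59%. Chromosome Y had few regions and the highest KO1-only share, 4.08%. With 150000 peaks per library the shares were 2.44% KO1-only on chromosome 3, and 3.86 and 3.43% KO2-only on chromosomes 19 and 9, so these chromosomes stood out in both versions, while chromosome 22 fell to 2.60% KO2-only.

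On chromosome 3, 288 of the 357 KO1-only regions had no peak in any WT library. On chromosome 19, 142 of the 256 KO2-only regions had a peak in all 3 WT libraries and 70 had none, the reverse of the genome as a whole. On chromosome 9 the counts were 168 with 3 WT peaks and 255 with none of 523. Most KO1-only sites of chromosome 3 were thus not called in WT, and most KO2-only sites of chromosome 19 were.

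The share of a library's peaks on each chromosome was compared as well. Chromosome 3 held 6.80 to 6.81% of peaks in KO1 and 6.61 to 6.67% in KO2, and chromosome 9 held 4.38 to 4.41% and 4.51 to 4.53%. The values of the 2 clones did not overlap for 10 of 24 chromosomes, with chromosomes 1, 3, 6 and 8 higher in KO1 and 9, 16, 19, 20, 22 and X higher in KO2. With 3 against 3 libraries no chromosome could pass the test (smallest exact permutation p = 0.1, Benjamini-Hochberg adjusted p = 0.24).

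**Figure D2:**
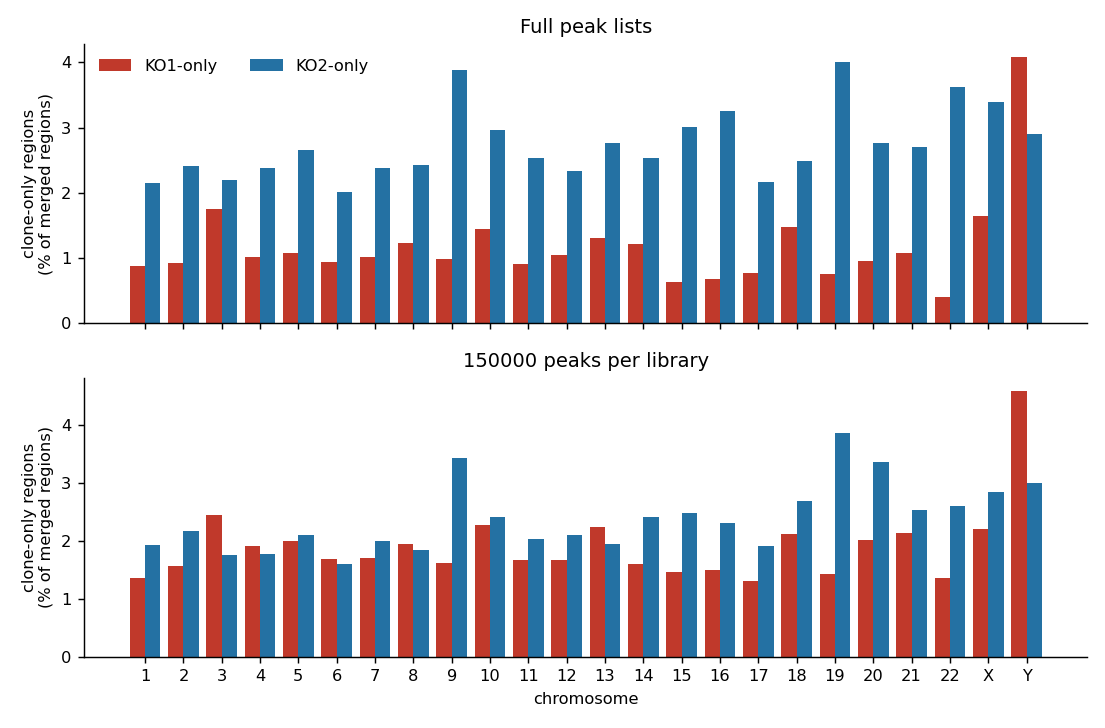
KO1-only and KO2-only regions as a percentage of the merged regions of each chromosome, with the full peak lists (top) and with 150000 peaks per library (bottom). Chromosome Y has the highest KO1-only share (4.08% and 4.58%), chromosome 3 the next highest (1.75% and 2.44%), and chromosomes 9 and 19 the highest KO2-only shares (3.89 and 4.0% with the full lists).

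Differences also lay in long stretches. Peaks were counted in 5 Mb windows, scaled to the mean number of peaks per library, and compared with limma. Of 599 windows, 61 had more peaks in KO1 (10.2%) and 63 more in KO2 (10.5%) at an adjusted p under 0.05. Of its 40 windows chromosome 3 had 9 higher in KO1 and 3 higher in KO2, and chromosome X had 3 and 8 of 31. Chromosome 18 had 4 of 15 windows higher in KO1 and 1 higher in KO2. Chromosomes 16 and 22 had 5 of 18 and 4 of 9 windows higher in KO2 and 0 higher in KO1. Peak numbers per window below are unscaled.

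The window at 75 to 80 Mb of chromosome 3, which holds ROBO2 and ROBO1, had 155, 173 and 170 peaks in KO1, 57, 62 and 70 in KO2, and 43, 40 and 37 in WT. KO1 lay far above both other groups (log2 difference KO1 minus KO2 1.46 ± 0.06 SE, adjusted p = 4.03e-14, limma), and 66 of its 220 merged regions were KO1-only. The window at 85 to 90 Mb of the same chromosome, with EPHA3, had 93, 101 and 107 peaks in KO1, 63, 59 and 71 in KO2 and 50 to 53 in WT (0.73 ± 0.06, adjusted p = 4.51e-08). On chromosome 8 the window at 110 to 115 Mb had 101, 130 and 135 peaks in KO1, 60, 62 and 85 in KO2 and 17 to 19 in WT (0.91 ± 0.08, adjusted p = 5.35e-08). In these 3 windows both clones had more peaks than WT, and KO1 the most. At 65 to 70 Mb of chromosome 13 KO1 had 136, 148 and 162 peaks and KO2 99, 96 and 122 (0.60 ± 0.06, adjusted p = 5.35e-08). Here WT, with 102 to 124, overlapped KO2 in unscaled counts. The KO2 lists were longer than the WT lists, and relative to list length WT lay between the clones.

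On chromosome Y the window at 5 to 10 Mb had 102, 109 and 125 peaks in KO1 and 90 to 102 in WT but 41, 37 and 42 in KO2 (1.49 ± 0.08, adjusted p = 3.49e-12). The descendants of KO2 differed here from each other, with 17, 13 and 16 peaks in Rescue1 and 88, 75 and 70 in Rescue2.

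The window with the largest excess in KO2 was 20 to 25 Mb of chromosome 5, with 47, 48 and 48 peaks in KO1, 80, 84 and 98 in KO2 and 21 to 26 in WT (-0.69 ± 0.07, adjusted p = 1.96e-07). On chromosome 19, KO1 had 261, 281 and 261 peaks at 50 to 55 Mb and KO2 365, 366 and 425, with 458 to 468 in WT (-0.39 ± 0.03, adjusted p = 6.72e-09). At 30 to 35 Mb of chromosome 19 KO1 had 140, 157 and 144, KO2 191, 204 and 225, and WT 193 to 214 (-0.35 ± 0.04, adjusted p = 5.33e-06). In unscaled counts KO1 was lowest in both chromosome 19 windows. KO2 lay between KO1 and WT in the first and overlapped WT in the second. The KO2 lists held 220315 to 254650 peaks and the WT lists 196969 to 212373. Relative to list length KO2 lay between KO1 and WT in the second window too. The other named windows were 60 to 65 Mb of chromosome 7 (-0.46 ± 0.10, adjusted p = 0.00331) and 85 to 90 Mb of chromosome X (-0.44 ± 0.11, adjusted p = 0.0055), both with fewer than 50 peaks in every KO library. Of these 10 windows, the 9 that could be tested with equal lists kept their direction, with log2 differences from -0.65 to 1.59.

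**Figure D3:**
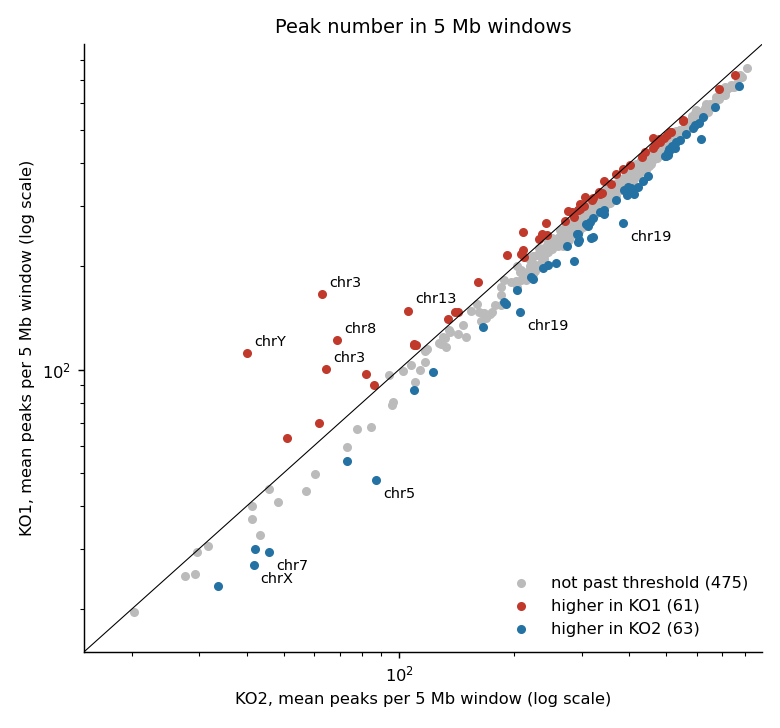
Mean number of peaks per 5 Mb window in KO2 (x, log scale) and KO1 (y, log scale), n = 3 libraries each, with windows past the threshold in red (61, higher in KO1) or blue (63, higher in KO2) and the named ones labelled by chromosome. The line marks equal numbers before scaling, and the window at 75 to 80 Mb of chromosome 3 lies farthest above it among those off chromosome Y.

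Runs of neighbouring regions without any peak of one clone were then listed by the number of clone-only regions in them. The run with the most lay on chromosome 9 at chr9:21513592-21802412. It held 47 merged regions and no KO1 peak in any library, 29 of the regions were KO2-only, and 22 of those 29 had a peak in all 3 WT libraries. A second run on the same arm, chr9:21836411-21996057, reaches from within MTAP to CDKN2A and held 23 regions, 13 of them KO2-only and 9 of those in all 3 WT libraries. MTAP is the enzyme that salvages methionine from polyamine synthesis, and CDKN2A and CDKN2B encode inhibitors of the cell cycle kinases CDK4 and CDK6.

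From 300 kb before MTAP to 300 kb after CDKN2B (chr9:21502636-22309305), KO1 libraries held 46, 51 and 45 peaks, KO2 103, 105 and 114, and WT 105 to 120. At chr9:21506957-21507138, before the gap, fold enrichment was 5.01, 7.16 and 6.01 in KO1 and 4.92, 8.01 and 8.64 in KO2. At chr9:22026739-22027007, after it, KO1 had 5.87, 4.01 and 7.88 and KO2 8.20, 9.15 and 9.66, and at chr9:22030092-22030610 KO1 had 11.1, 10.9 and 11.9 and KO2 9.84, 9.05 and 10.2. Between the first and second of these sites only 3 merged regions held a peak in any KO1 library. The promoter of MTAP (chr9:21802450-21803404) had 11.8, 14.5 and 12.2 in KO2, 10.8 to 11.8 in WT, and a peak in 1 KO1 library, at 3.58. The promoter of CDKN2B (chr9:22008662-22009695) had 10.1, 12.5 and 9.60 in KO2, 8.81 to 11.5 in WT, and 4.61 in the same KO1 library, replicate 2. An intron site of MTAP (chr9:21832027-21832460) was called in KO1 replicates 2 and 3, at 8.19 and 3.82, and at 7.86 to 8.36 in KO2.

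Other runs without a KO1 peak crossed PTPRD in 2 places (17 KO2-only regions over 915 kb, none of them in all 3 WT libraries, and 14 over 728 kb), SYN3 and TIMP3 on chromosome 22 (14), AUTS2 on chromosome 7 (14) and NELL1 on chromosome 11 (13, of which 9 were in all 3 WT libraries). Runs without a KO2 peak crossed CSMD3 (21 KO1-only regions over 1467 kb), ROBO1 (18), ROBO2 (17), EPHA3 (15) and CNTNAP2 (14). In the CSMD3 and ROBO1 runs none of the KO1-only regions was in all 3 WT libraries. A run of 877 kb without genes on chromosome 3 (chr3:166190264-167067844) held 20 KO1-only regions, none of which had a peak in any WT library or in all 3 libraries of a rescue line. A run at chr10:8350352-8677970, beyond GATA3, held 16, of which 6 were in all 3 WT libraries.

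**Figure D4:**
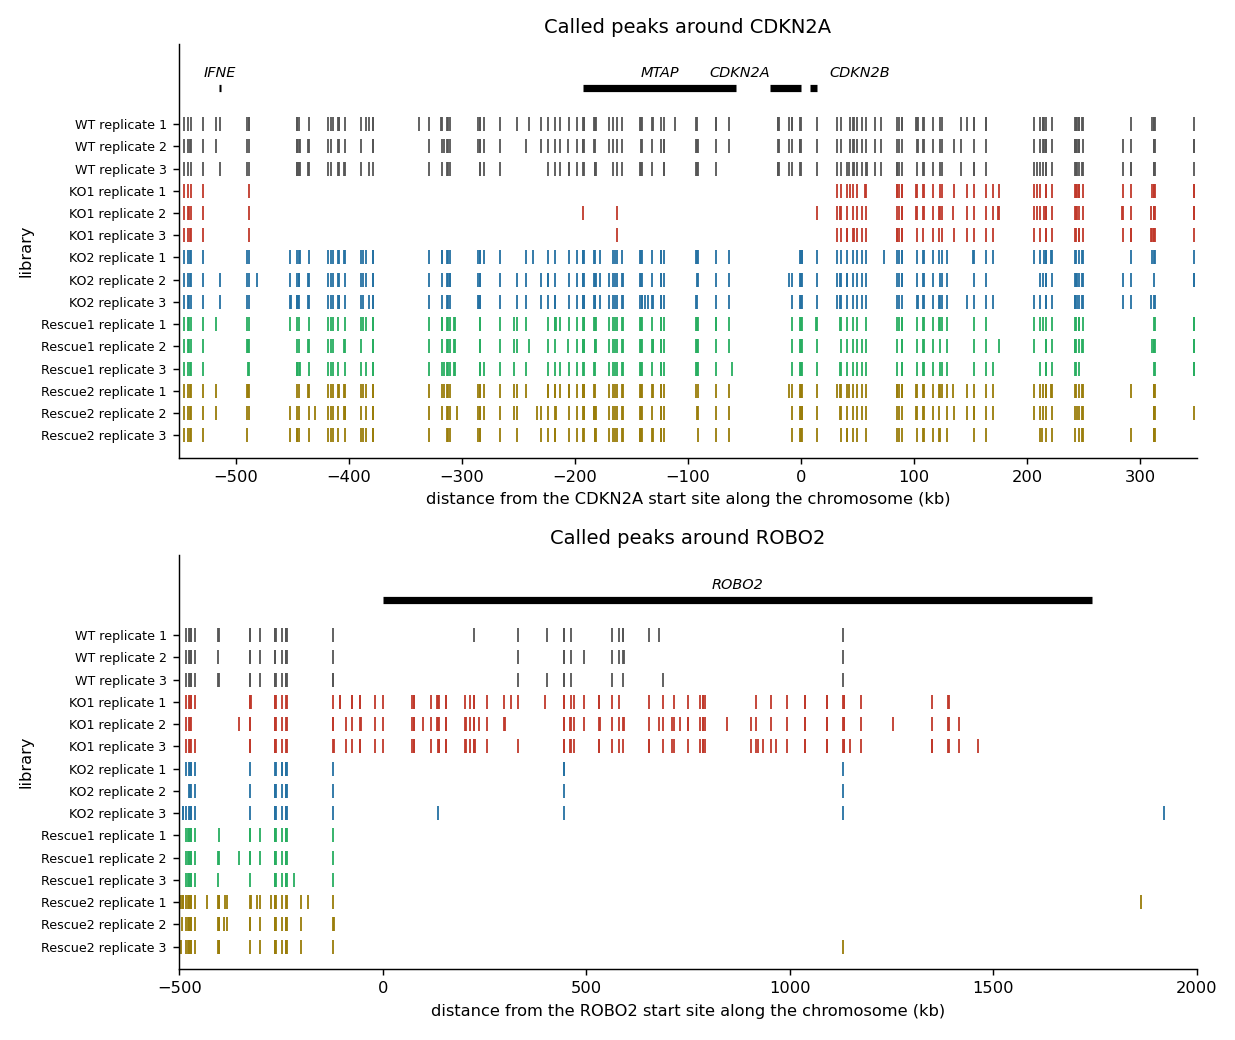
Called peaks (ticks) of the 15 libraries around the start sites of CDKN2A (top) and ROBO2 (bottom), by distance in kb, with gene bodies as black bars. KO1 libraries lack most peaks over MTAP, CDKN2A and CDKN2B that WT, KO2 and rescue libraries hold, and KO1 libraries hold peaks over ROBO2 that are few in WT and almost absent from KO2 and rescue libraries.

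To name genes, the bases under peaks in each protein-coding gene body with 10 kb on each side were scaled to the mean total of the 6 libraries and compared with limma on log2(bases + 200). Values below are unscaled bases, and log2 differences are KO1 minus KO2 after scaling, on that scale, which understates changes of low loci. Of 18333 loci tested, 618 were higher in KO1 (3.37%) and 740 higher in KO2 (4.04%), and the median over all loci was 0.02. The scaled values of the 2 clones did not overlap for 604 and 727 of these. The calls came from the same values, so this adds no support to them. A difference of at least 1 was reached by 39 loci higher in KO1 and 101 higher in KO2. Over 14 other settings, 60 and 157 loci kept their call in every one, and so did all of the 10 largest in each direction except ITIH2, which was not tested without flanks. Without scaling the counts were 137 and 433, with equal lists 356 and 417, and without KO2 replicate 3 they were 382 and 462.

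The largest difference toward KO1 was at ROBO2. This receptor for SLIT ligands in axon guidance (chromosome 3, 75906695 to 77649964, plus strand) had 10302, 11402 and 12273 bases under peaks in KO1, 328, 257 and 468 in KO2 and 2247, 1756 and 1781 in WT. The difference was 4.44 ± 0.09 (SE, adjusted p = 2.70e-18), and 36 of its 76 merged regions were KO1-only. No rescue library had a base under a peak there except Rescue2 replicate 3, with 109. ROBO1, the neighbouring receptor of the same family (78597239 to 79767998, minus strand), had 13090, 14416 and 13962 bases in KO1, 5333, 4557 and 5222 in KO2, and 320 to 718 in WT (1.46 ± 0.05, adjusted p = 1.28e-14). Both clones were above WT at ROBO1, whereas at ROBO2 KO2 was below it.

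EPHA3, an ephrin receptor (chromosome 3, 89107621 to 89482134, plus strand), had 2328, 2265 and 2498 bases in KO1, 0, 188 and 75 in KO2 and 690 to 781 in WT (3.22 ± 0.17, adjusted p = 3.66e-11). DCC, the netrin receptor on chromosome 18, had 1942, 1961 and 2316 in KO1, 216, 126 and 514 in KO2, and at most 77 in WT (2.34 ± 0.17, adjusted p = 4.75e-09). PDZRN3, a ubiquitin ligase of the synapse and of Wnt signalling on chromosome 3, had 5960, 5332 and 6227 in KO1, 1102, 1045 and 1195 in KO2, and 119 to 193 in WT (2.23 ± 0.07, adjusted p = 4.05e-15). The rescue libraries had 195 to 539 bases at PDZRN3, below KO2, their parent.

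NLGN4X, a neuroligin on chromosome X, had 1608, 1721 and 2365 bases in KO1 and none in any other library (3.39 ± 0.15, adjusted p = 1.58e-12). TAC1, the precursor of substance P on chromosome 7, had 606, 602 and 609 in KO1 and none elsewhere (2.03 ± 0.19, adjusted p = 3.28e-07). Both were listed at 0 in all 12 other libraries. Where one clone is at or near 0 the fitted difference depends on the 200 added bases. Such a locus, in either direction, also passed the filter on mean bases only through the clone where it was high. A clone at 0 has no spread either, so these p-values are no separate support. With 1000 added, NLGN4X fell to 1.54, TAC1 to 0.69, ITIH2 to 0.88, EPHA3 to 1.64, DCC to 1.29, FGF10 to 0.99 and TBL1Y to 1.52, all still past the threshold, so the order of the 10 largest is not fixed. CSMD3 (chromosome 8) had 3645, 4547 and 4191 in KO1, 876, 649 and 1012 in KO2 and 441 to 661 in WT (2.1 ± 0.09, adjusted p = 1.18e-12). CNTNAP2, a neurexin-family protein on chromosome 7, had 6346 to 8005 in KO1, 3227 to 3483 in KO2 and 294 to 873 in WT (1.1 ± 0.07, adjusted p = 7.11e-10).

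FGF10, a growth factor of epithelial branching on chromosome 5, had 1407, 1532 and 1673 in KO1, 82, 218 and 678 in KO2, at most 153 in WT and none in rescue libraries (1.92 ± 0.23, adjusted p = 8.28e-06). STS, steroid sulfatase on chromosome X, had 16 KO1-only regions and 5588 to 6361 bases in KO1, 1576 to 1766 in KO2 and 3240 to 3512 in WT, so WT lay between the clones (1.76 ± 0.07, adjusted p = 3.35e-13). ITIH2, an inhibitor heavy chain of the extracellular matrix on chromosome 10, differed in another way: KO1 had 757, 790 and 953, WT 909 to 1093 and the rescue libraries 931 to 1480, and KO2 had none (2.38 ± 0.18, adjusted p = 8.34e-09). TBL1Y on chromosome Y was also among the 10 largest (3.36 ± 0.15, adjusted p = 2.16e-12).

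Among the named loci higher in KO2, WT was close to KO2 at some and without bases under peaks at others. MTAP (chromosome 9, 21802636 to 21937651, plus strand) had 0, 376 and 117 bases in KO1, 6601, 6215 and 7033 in KO2 and 5795 to 6957 in WT (-4.34 ± 0.22, adjusted p = 8.28e-12), and 17 of its 30 merged regions were KO2-only. CDKN2B (22002903 to 22009305, minus strand) had 0, 176 and 0 in KO1, 2001 to 2026 in KO2 and 2364 to 2483 in WT (-3.15 ± 0.19, adjusted p = 2.11e-10). CDKN2A, named because a run without KO1 peaks reached it, had none in KO1, 967, 1232 and 1214 in KO2 and 2414 to 2825 in WT (-2.72 ± 0.17, adjusted p = 4.18e-10). All rescue libraries had over 1000 bases at each of the 3 genes.

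Chromosome 19 gave 3 of the 10 largest. SHANK1, a scaffold of the synapse, had 102, 0 and 0 bases in KO1, 2759, 2822 and 2945 in KO2 and 3322 to 3988 in WT (-3.71 ± 0.15, adjusted p = 3.35e-13). FPR1, a receptor for formylated peptides, had 425 to 487 in KO1, 4298 to 5227 in KO2 and 4759 to 5084 in WT (-2.90 ± 0.08, adjusted p = 4.92e-16), with 12 of its 19 merged regions KO2-only. SIGLECL1 had none in KO1, 1323 to 1501 in KO2 and 1890 to 2106 in WT (-3.02 ± 0.15, adjusted p = 1.02e-11). At these 3 loci KO1 was far below both KO2 and WT.

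COL5A1, the alpha 1 chain of type V collagen (chromosome 9, 134641803 to 134844843, plus strand), had none in WT. KO2 had 7668, 6887 and 7996 bases, and KO1 590, 514 and 501 (-3.36 ± 0.08, adjusted p = 1.78e-17), and 20 of its 39 merged regions were KO2-only. The 6 rescue libraries had 7905 to 9426. PTPRD, a receptor tyrosine phosphatase on chromosome 9, had 9853, 7882 and 10479 in KO2, 983 to 1211 in KO1 and 1811 to 1983 in WT (-2.83 ± 0.08, adjusted p = 3.65e-16), with the most KO2-only regions of any locus, 31. MC2R, the ACTH receptor on chromosome 18, had 884 to 1016 in KO2, 785 to 1103 in rescue libraries and none in KO1 or WT (-2.49 ± 0.17, adjusted p = 2.15e-09).

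SYN3, a synapsin on chromosome 22 (32507820 to 33058381, minus strand), had none in KO1, 3875, 3665 and 5621 in KO2 and 1702 to 2346 in WT (-4.48 ± 0.12, adjusted p = 3.65e-16). AUTS2, a regulator of neuronal transcription on chromosome 7, had 596 to 774 in KO1, 5409 to 7066 in KO2 and 1015 to 1449 in WT (-2.85 ± 0.08, adjusted p = 3.84e-16). NELL1, a secreted factor of bone formation, had 109 to 155 in KO1, 1357 to 1830 in KO2 and 3030 to 3709 in WT (-2.41 ± 0.13, adjusted p = 4.05e-11). UNC13C, a protein of vesicle priming, had 188 to 241 in KO1, 1842 to 2383 in KO2 and 201 to 217 in WT (-2.38 ± 0.11, adjusted p = 4.79e-12). With 1000 bases added, SYN3 changed to -2.40, MTAP to -2.70, SHANK1 to -1.88, CDKN2B to -1.50, SIGLECL1 to -1.28, CDKN2A to -1.09, MC2R to -0.94, NELL1 to -1.19 and UNC13C to -1.30, all still past the threshold. NELL1 was lower in both clones than in WT, and UNC13C was higher in KO2 than in KO1 or WT. CDKN2A, NELL1 and UNC13C lie outside the rule for named genes and were chosen after their values were seen.

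**Figure D5:**
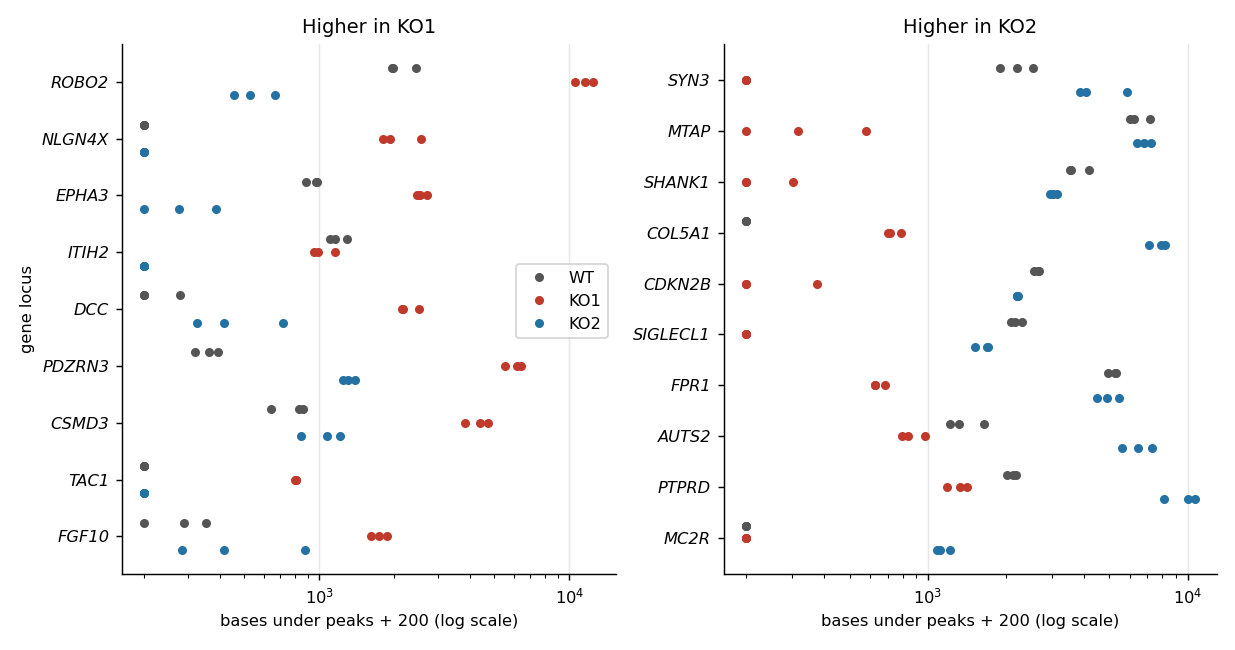
Bases under peaks plus 200 (log scale) per library for the 9 loci off chromosome Y among the 10 largest differences higher in KO1 (left) and for the 10 largest higher in KO2 (right), in WT, KO1 and KO2 (n = 3 each). The loci were picked for values of the 2 clones that do not overlap. WT sits with KO2 at MTAP, CDKN2B, SHANK1, SIGLECL1 and FPR1 and with neither clone at ROBO2 and PDZRN3.

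Over all called loci, WT was nearer to KO1 in 333 of the 618 higher in KO1 (53.9%) and nearer to KO2 in 478 of the 740 higher in KO2 (64.6%), by group means on the log2 scale. Rescue1 was nearer to KO1 than to its parent KO2 in 257 of the 618 (41.6%) and 184 of the 740 (24.9%), and Rescue2 in 206 (33.3%) and 165 (22.3%). The same shares over all loci tested were not computed, so these cannot be read as particular to the called loci. Calls higher in KO2 were most frequent on chromosome 21 (9.58% of its loci), chromosome 20 (7.03%), chromosome X (6.81%) and chromosome 19 (6.0%), against 4.04% over all loci.

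The SETD2 locus itself (chromosome 3, 47016428 to 47164113, minus strand) did not separate the clones, with 5040, 4272 and 4486 bases in KO1, 4801, 4213 and 5375 in KO2 and 3880 to 4480 in WT (-0.02 ± 0.07, adjusted p = 0.916). Peaks over the locus do not test the edit itself. No gene of the 11 writers and erasers of H3K36 methylation passed the threshold (median -0.02), where 3.37 and 4.04% of all loci did.

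Of the 285 genes in 12 lists of renal, epithelial and signalling genes, 17 passed, 8 higher in KO1 (2.86% of the 280 tested) and 9 higher in KO2 (3.21%). Over all loci the shares were 3.37 and 4.04%, so the listed genes were not called more often than other loci, and the genes below are given one by one. In the mesenchymal list, TWIST1, a transcription factor of the mesenchyme, was higher in KO1 (0.43 ± 0.07, adjusted p = 0.000307), and COL5A1, the cadherin CDH11 (-0.34 ± 0.07, adjusted p = 0.00262) and fibronectin FN1 (-0.28 ± 0.07, adjusted p = 0.0219) were higher in KO2. The values of the 2 clones overlapped for FN1, as they did for WNT7A, both before and after scaling. For ERG, named below, they overlapped before scaling only. The other 26 of 30 tested did not pass, the median was 0, and ZEB1 (0.02), ZEB2 (0.03), SNAI2 (0.02), SOX2 (0.02), PRRX1 (0.11) and VIM (-0.05) were among them. The list held 30 KO2-only and 3 KO1-only regions, and 20 of the KO2-only regions were those of COL5A1. CDH11 had 2804 to 2973 bases in KO1, 3673 to 3908 in KO2 and 139 to 337 in WT, so both clones were well above WT and close to each other. No gene of the 28 in the epithelial junction list passed (median 0.04).

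Of 19 tested markers of other nephron segments 16 did not pass (median 0.03). GATA3, a transcription factor of the distal tubule and collecting duct (chromosome 10, 8045378 to 8075198, plus strand), had 1096, 951 and 1361 bases in KO1 and 1125 to 1643 in WT, but 214, 176 and 287 in KO2 (1.68 ± 0.14, adjusted p = 4.64e-08). The rescue libraries lay between, with 623 to 907. PODXL, a sialomucin of podocytes (0.29 ± 0.07, adjusted p = 0.0087), was also higher in KO1, and SCNN1B, a subunit of the epithelial sodium channel (-0.58 ± 0.10, adjusted p = 0.000592), was higher in KO2. Of the 28 proximal tubule markers 26 did not pass. CYP27B1, which activates vitamin D (0.36 ± 0.09, adjusted p = 0.0155), was higher in KO1 and the aminopeptidase ANPEP (-0.26 ± 0.08, adjusted p = 0.0444) in KO2.

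In the kidney development list 16 of 18 did not pass (median 0.02), and WT1 (-0.58 ± 0.12, adjusted p = 0.00295) and MEOX1 (-0.35 ± 0.10, adjusted p = 0.0362) were higher in KO2. Of the 39 HOX genes, HOXA13 (0.49 ± 0.09, adjusted p = 0.00138) and HOXC13 (0.40 ± 0.12, adjusted p = 0.0497) were higher in KO1. WNT7A (-0.29 ± 0.09, adjusted p = 0.0493) of 43 WNT genes tested and the cytokine CSF2 (-0.54 ± 0.10, adjusted p = 0.00157) of 19 inflammatory factors were higher in KO2, and the interferon-induced OASL (0.29 ± 0.08, adjusted p = 0.0253) and the endothelial factor ERG (0.21 ± 0.06, adjusted p = 0.0493) were higher in KO1. In these last 2 lists 19 of 20 and 14 of 15 genes did not pass. None of the 14 genes of tubule injury and stemness passed. Of the 17 calls, COL5A1, GATA3, CDH11, SCNN1B and WT1 held in all 14 other settings, and the CSF2 difference was 0.01 without the flanks of the gene.

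The label of a proximal tubule line was checked at promoters. Peaks stood within 1 kb of a start site in all 3 libraries for 17 of 28 proximal tubule markers in WT and 16 in each clone, and for 5 of 15 endothelial and blood markers in each group. Markers of other nephron segments were about as often open, 11 of 22 in WT, 10 in KO1 and 12 in KO2, so promoter peaks did not single out the proximal tubule. AQP1 and SLC34A1 were among the open ones, and HNF4A, SLC5A2, SLC22A6, SLC6A19, SLC34A3 and FBP1 had no promoter peak in any of the 9 libraries, nor had PECAM1, VWF and PTPRC. Summed over the proximal tubule list, bases under peaks were 68143 to 69206 in KO1, 66345 to 78116 in KO2 and 68317 to 79119 in WT. Of the 28 epithelial junction and polarity genes, 24 had a promoter peak in all 3 libraries in WT and 23 in each clone. By promoter peaks that list as a whole thus hardly differed. Summed over the list, bases under peaks were 116299 to 119318 in KO1, 109606 to 128121 in KO2 and 121880 to 140111 in WT. Every KO1 library lay below every WT library, and KO2 overlapped both. These sums were not tested. Within the list, the promoter of the cadherin CDH1 was called in 3 WT, 0 KO1 and 1 KO2 library.

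Regions open in both clones also differed in height. In the 142315 regions with a peak in all 6 libraries, the highest fold enrichment per library was quantile normalized and compared with limma, and 1167 regions were higher in KO1 (0.820%) and 2028 higher in KO2 (1.43%). Without KO2 replicate 3 the counts were 403 and 382. Of the regions higher in KO1, 43.8% had a peak in all 3 WT libraries and 42.7% in none, whereas of those higher in KO2 72.3% had 3 and 15.4% none, against 81.3 and 10.0% of all shared regions. Promoters made up 7.20 and 2.76% of them, against 14% of all shared regions.

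The sequences at the regions with the largest difference in each direction are given in the same way as above.
Shared, higher in KO1, at chr18:1438424-1438573: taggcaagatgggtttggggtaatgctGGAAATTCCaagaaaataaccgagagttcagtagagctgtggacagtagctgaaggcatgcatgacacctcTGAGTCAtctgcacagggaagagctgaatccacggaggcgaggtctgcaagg
Shared, higher in KO2, at chr4:35772443-35772592: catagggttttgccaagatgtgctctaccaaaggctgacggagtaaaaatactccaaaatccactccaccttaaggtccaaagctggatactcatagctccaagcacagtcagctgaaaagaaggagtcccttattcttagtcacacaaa
The first (chr18:1438377-1438665) had fold enrichments of 15.9, 16.9 and 19.0 in KO1 and 5.46, 4.58 and 4.58 in KO2, with 4.29 and 4.45 in 2 WT libraries and no peak in rescue libraries (1.94 ± 0.13, adjusted p = 0.000848). The second (chr4:35772358-35772670) had 6.13, 3.07 and 5.46 in KO1, 18.4, 16.0 and 17.7 in KO2, 16.9 to 22.8 in rescue libraries and no peak in WT (-1.79 ± 0.22, adjusted p = 0.003).

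An intron site of LGR5, a receptor for R-spondins that marks epithelial stem cells (chr12:71469287-71469565), had 19.9, 18.7 and 19.0 in KO1, 6.01, 7.44 and 5.59 in KO2, and 3.89 to 5.24 in WT (1.73 ± 0.13, adjusted p = 0.000848), although the LGR5 locus as a whole did not differ (0.04, adjusted p = 0.775). An intron site of NALF1 (chr13:107669386-107669907) had 13.3, 13.2 and 13.6 in KO1, 4.0 to 4.92 in KO2 and no WT peak (1.68 ± 0.14, adjusted p = 0.0011), and a promoter region at EIF4EBP3 (chr5:140547393-140547818) had 12.7, 12.7 and 18.2 against 4.72, 4.64 and 5.17 (1.67 ± 0.15, adjusted p = 0.0011). In the other direction, a site in UNC80 (chr2:209872605-209873011) had 4.45, 5.63 and 5.46 in KO1, 19.7, 14.1 and 20.3 in KO2 and 8.10 to 9.45 in WT (-1.67 ± 0.16, adjusted p = 0.00147). An intergenic site 40 kb from UCN3 (chr10:5325123-5325425) had 5.57, 4.09 and 3.82 in KO1, 13.2, 13.8 and 16.8 in KO2 and 6.59 to 9.54 in WT (-1.60 ± 0.18, adjusted p = 0.00222). At that last site Rescue1 had 3.85 to 5.54 and Rescue2 13.1 to 16.2, so the 2 lines from KO2 differed.

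Clone-only regions were mostly distal. Promoters, taken as 1 kb on each side of a start site of a protein-coding gene, held 214 KO1-only regions (6.62%, 95% Wilson interval 5.82 to 7.53) and 413 KO2-only regions (5.30%, 4.82 to 5.82), against 14% of the regions in all 6 libraries and 10.2% of all merged regions. These intervals cover counting error only. Introns held 49.5 and 55.8%, exons 5.73 and 6.88%, and intergenic sequence 38.1 and 32.1%. In all, 209 genes had a KO1-only and 400 a KO2-only region at a promoter.

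The KO1-only promoters with the highest ranks were those of ROBO2 (chr3:75906477-75906925), MAPK10, a JNK kinase of neurons (chr4:86359974-86360317), OR2T10, HHIPL1 and SLC7A8, an amino acid transporter. The ROBO2 and SLC7A8 promoters had no peak in WT, and those of MAPK10 and HHIPL1 had one in all 3 WT libraries and in none of the rescue libraries. Among the KO2-only promoters of the highest rank were those of BEX5 (chrX:102155572-102156161), NEK10 and SIGLECL1, each with a peak in all 3 WT libraries. ALX1, a homeobox factor of the craniofacial mesenchyme (chr12:85279983-85280900), and FXYD5, a regulator of the sodium pump (chr19:35164450-35164797), had KO2-only promoter regions without a peak in WT. The ALX1 promoter was called in all 6 rescue libraries, and the FXYD5 promoter in 2 Rescue2 libraries.

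The sets differed in base content and in short consensus sequences, which were counted on both strands in 200 bp around the centre of each region and not tested. The median GC content was 44.5% in KO1-only and 48.5% in KO2-only regions, against 47.5% in all merged regions. The AP-1 consensus TGANTCA stood in 22.8% of KO1-only and 33.7% of KO2-only regions, against 30.1% of regions in all 6 libraries and 27.1% of all merged regions. KO1-only regions more often held C/EBP (TTGCNNAA, 15.3 against 8.39%, 10.8% of all), TEAD (GGAATG, 17.7 against 14.3%, 14.9% of all), FOX (TGTTTAC, 5.45 against 3.14%, 3.65% of all) and the homeobox core (TAATTA, 4.89 against 2.84%, 3.77% of all). KO2-only regions more often held the E-box CAGGTG of the ZEB and SNAI type (16.1 against 12.3%, 14.6% of all). CTCF (CNAGGGGGC) stood in 1.02 and 0.847%, against 1.66% of regions in all 6 libraries, and KLF/SP (GGGCGGGG) in 2.14 and 1.89% against 4.15%. RUNX (TGTGGTT) stood in 9.41 and 9.19%, against 7.93% of all. Several of these words are rich in A and T or in G and C, and the part of base content in these shares was not tested.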

How the data were processed

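ATAC-seq peak lists of 15 RPTEC libraries were used. The authors aligned reads to hg38 with BWA (0.7.17 in the submitters' processing notes) and called peaks in each library with MACS2 2.2.7.1. The deposited lists give, per peak, a score, a fold enrichment over local background, and the −log10 of the p-value and q-value. The files hold no read counts, so the background solved from the lists is given in place of depth, and no count test was made. Only chromosomes 1 to 22, X and Y entered. From 0.246 to 0.316% of peaks lay elsewhere.

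Genes came from GENCODE 44. Bases under peaks per gene with 10 kb flanks (mean of at least 200, 200 added), peaks per 5 Mb window (mean of at least 20, 5 added) and quantile-normalized fold enrichment were compared on the log2 scale with limma 3.58.1 in R 4.3.3 over the 6 KO libraries, without a replicate block, with Benjamini-Hochberg adjustment over all features. Scripts in Python 3.11.15 with NumPy 2.4.6, pandas 2.3.3 and SciPy 1.17.1 made the other values, and the tests were checked on simulated data. There limma recovered planted log2 differences of 1 at 98.0% of loci, 100% of windows and only 46.0% of shared regions. For differences of 2 the shares were 100, 100 and 84.0%. In the real libraries, same-numbered replicates did not deviate together (r from -0.198 to 0.123).

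Named genes were the 10 largest differences per direction past an adjusted p of 0.05 without overlap, the 5 loci with the most clone-only regions of each clone, listed genes that passed, and SETD2. For windows, 5 per direction were named. Clone-only and shared regions were ranked in the same way, and not all of the top 5 per direction are described. The comparison, gene lists and tests were chosen with earlier results of these data known. Alternatives were equal lists of 150000 peaks, stricter peaks, other scaling, windows and flanks, all 15 libraries, and each library left out.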

Additional observations from a re-analysis of the deposited data

How the results depend on the processing

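The files hold peaks and no reads, so a missing peak was not told apart from one below the threshold, and the number of clone-only regions followed list length and the library left out. With a peak in at least 2 of 3 libraries there were 9068 KO1-only and 19457 KO2-only regions, and with 150000 peaks per library 4279 KO2-only regions. Leaving out 1 library at a time gave 3961 to 5670 KO1-only and 9439 to 13408 KO2-only regions, where fewer libraries have to lack or hold the peak. The difference in Mb under peaks turned to 0.853 with equal lists and ranged from -3.74 to 0.802 with 1 library left out. Chromosomes whose peak shares did not overlap numbered 9 with equal lists and 10 to 17 with 1 library left out (17 without KO2 replicate 3).

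Gene loci higher in KO1 numbered 356 with equal lists, 137 without scaling and 337 without flanks, and 382 to 540 with 1 library left out. Those higher in KO2 numbered 417, 433 without scaling, and 462 to 724. The CSF2 difference was 0.01 without flanks. Windows of 2 Mb gave 107 and 111 calls, and leaving out 1 library gave 43 to 62 and 40 to 58. Shared regions numbered 2455 and 4061 by −log10 q, and 403 to 684 and 382 to 1823 with 1 library left out. With the replicate number as a block, which did not pair the samples, calls were 710 and 832 loci, 56 and 54 windows, and 570 and 1012 shared regions. Promoter shares were 8.07% of KO1-only regions with equal lists, and 8.79 and 8.11% of KO1-only and KO2-only regions with 2 kb on each side. AP-1 shares in 100 bp were 16.0 and 25.6%. The causes were not tested. The sign of the WT and rescue occupancy differences held in every alternative run, from -8.56 to -20.6 and from -31.0 to -46.0 percentage points.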

Other observations

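The 2 rescue lines, both derived from KO2, differed from each other at loci that separated the clones. AUTS2 had 572, 448 and 741 bases under peaks in Rescue1 and 9121, 8741 and 7454 in Rescue2. SYN3 had 8400, 8257 and 9146 in Rescue1 and 2614, 2428 and 2091 in Rescue2. Rescue1 was thus near KO1 at AUTS2 and above KO2 at SYN3, and Rescue2 was above KO2 at AUTS2 and below it at SYN3. PTPRD had 8761, 8699 and 8936 bases in Rescue1 and 6877, 5211 and 3636 in Rescue2. These differences were not tested.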
